A study of Mus musculus with 275 samples.

Results

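The 10 genes described here, Bcl11b, Foxp1, Foxp2, Rarb, Meis2, Ebf1, Isl1, Zfp503, Six3 and Mef2c, encode transcription factors of striatal spiny neurons. They were taken by name, 10 of the 16593 genes named on the array, with all their probes, 17 of 25697, and each probe was followed through all arrays of the study. Striatal RNA of 1 mouse was hybridised to each Illumina bead array. There were 41 High and 42 Low mice in the F2 selection, 48 High and 48 Low mice in HS4, and as many in HS-CC. High mice came from lines bred for a strong cataleptic response to haloperidol, a blocker of D2-like dopamine receptors, and Low mice from lines bred for a weak one. The F2 animals descended from an intercross, the HS4 animals from a heterogeneous stock of C57BL/6J, DBA/2J, BALB/cJ and LP/J mice, and the HS-CC animals from the founder strains of the Collaborative Cross. All were unmodified mice of selected lines that breeding had made more alike within a line, and related animals may share a line, so p-values that treat them as independent may be too small. The labels give no age. Labelled sex was given for the HS4 animals and matched a Y-linked transcript on 41 of 96 arrays, so their lines are those of the labels and every HS4 direction rests on them. The HS4 labels also give a family, 16 High and 16 Low families of 2 to 4 animals, 30 of them with 3. Results by family rest on these labels too.

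Spiny projection neurons make up most of the striatum and send its output along a direct pathway, whose cells carry the D1 dopamine receptor, and an indirect pathway, whose cells carry the D2 receptor. Bcl11b (also called CTIP2), a zinc-finger protein, and the forkhead repressors Foxp1 and Foxp2 are made in these cells from early differentiation onward. Rarb is a retinoic acid receptor that binds DNA with retinoid X receptors, and Meis2 is a homeodomain protein that binds DNA with Pbx partners. Ebf1 acts in the differentiation of direct pathway neurons, Isl1 in direct pathway neurons and in cholinergic interneurons, and Six3 in indirect pathway neurons. Zfp503 (Nolz1) is a zinc-finger protein of the developing striatum. Mef2c, which binds AT-rich sites, is also a major factor of cortical excitatory neurons and of microglia.

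Background was read on each array from 1341 probes of taste, vomeronasal and olfactory receptors, and a probe above their 95th percentile on at least 25% of the arrays of a selection was called expressed there. By that rule 15 probes of 9 genes were expressed in every selection. The fourth Foxp2 probe, above background on 6 F2, 3 HS4 and 7 HS-CC arrays, and the only Zfp503 probe, above background on 0 arrays of any selection, were not. Levels are in log2-like units of normalized fluorescence, are not compared between probes, and are not compared between selections, which may have been normalized separately. All 6 spiny neuron markers on the array (Ppp1r1b, Drd1, Drd2, Tac1, Rgs9 and Pde10a) were expressed. So were 5 of 5 markers of cortical glutamatergic neurons (Slc17a7, Tbr1, Neurod6, Neurod2 and Fezf2) and 3 of 3 of cholinergic interneurons. In tissue RNA, fewer cells of a type and less RNA per cell cannot be told apart. On 8 arrays (1 F2 High, 2 F2 Low, 3 HS4 High, 1 HS4 Low and 1 HS-CC High) the mean correlation with the other arrays of the selection lay more than 2.5 SD below the average; these are called outlying arrays. They were kept, and values without them are given where they differ. Repeating that removal until no array stood apart took out 10 F2, 21 HS4 and 9 HS-CC arrays.

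Bcl11b was the only one of these genes with a called difference between lines, and it was called in the F2 selection. Its promoter is shown because the F2 call fell on this gene, which is also in several of the pairs below. It runs 250 bases upstream to 50 bases downstream of the start of the gene at chr12:108003365-108003664 (RefSeq, GRCm38.p6, minus strand), and capitals mark a match to the EBF motif CCCNNGGG, the binding letters of the Ebf1 family, and a TATA box (TATAAA) on the opposite strand.
Bcl11b promoter: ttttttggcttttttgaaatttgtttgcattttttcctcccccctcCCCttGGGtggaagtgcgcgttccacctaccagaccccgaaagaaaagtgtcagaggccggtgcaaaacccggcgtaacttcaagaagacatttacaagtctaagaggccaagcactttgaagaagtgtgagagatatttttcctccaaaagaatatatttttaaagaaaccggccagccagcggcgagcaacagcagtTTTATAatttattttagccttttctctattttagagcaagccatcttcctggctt
The EBF letters stood 204 bases before the start. Over 32851 mouse promoters of this length, searched on both strands, 13.7% held the EBF letters and 13.6% the TATA letters, so both matches are common ones.

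The Bcl11b level in F2 High animals ran between 11.80 and 13.10 with a median of 12.45, against 12.03 to 13.23 with a median of 12.75 in F2 Low animals. The lines overlapped over most of their range, but 8 of the 10 lowest arrays were High and 2 were Low. The mean was 12.44 ± 0.28 in High and 12.72 ± 0.28 in Low animals (SD, n = 41 and 42). Bcl11b was thus lower in the High line, with a difference (High minus Low) of −0.28 on the log2 scale (standard error 0.060, 95% confidence interval −0.39 to −0.16). The adjusted p was 0.00737 by limma's eBayes with Benjamini-Hochberg adjustment over the 15300 expressed F2 probes, at a false discovery rate of 0.1. At that rate 141 F2 probes were called (0.922%), 54 higher and 87 lower in High animals. The difference was −0.25 without the outlying arrays (adjusted p = 0.0157), and it lay between −0.29 and −0.26 when each of the 83 arrays was left out in turn (adjusted p between 0.00303 and 0.0131). After quantile normalization across all selections and a single fit of the 6 lines it was −0.29 with a standard error of 0.12, and was not called (adjusted p = 1.00). That fit shared 1 residual variance over all 6 lines, and before that normalization the Bcl11b SD was 0.62 in HS4 High and 0.93 in HS4 Low. Whether the normalization or the shared variance lost the call was not tested. The F2 difference was also not called with the score of the GABA interneuron list in the fit, as given below. Bcl11b was read by a single probe whose sequence was not at hand, so a change in level and a strain variant under the probe cannot be told apart.

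In the other selections the Bcl11b lines were not told apart. Arrays labelled HS4 High ran between 11.43 and 14.40 with a median of 13.63, against 10.24 to 14.48 with a median of 13.56 on arrays labelled HS4 Low. The difference was 0.20 (standard error 0.16, interval −0.12 to 0.51, adjusted p = 0.989), and 0.018 (standard error 0.11) once outlying arrays had been removed repeatedly. HS-CC High animals ran between 11.37 and 13.50 with a median of 12.71, against 10.51 to 13.54 with a median of 12.60 in HS-CC Low animals, a difference of 0.025 (standard error 0.087, interval −0.15 to 0.20, adjusted p = 0.947). Both intervals lie above the F2 estimate. The difference of effects itself was tested in the joint fit. It was −0.48 for F2 minus HS4 (standard error 0.16, unadjusted p = 0.00345, adjusted p = 0.743) and −0.31 for F2 minus HS-CC (standard error 0.16, unadjusted p = 0.0539, adjusted p = 0.770), and for HS4 minus HS-CC it was 0.16 (unadjusted p = 0.293). Because the joint fit shares 1 residual variance over all lines, the HS4 spread also enters the standard error of F2 minus HS-CC. The separate fits had standard errors of 0.060 in F2 and 0.087 in HS-CC. No probe of the 10 genes passed any of these comparisons, in which 0.0429%, 1.04% and 0.829% of the 13994 probes expressed in all selections were called.

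**Figure D1:**
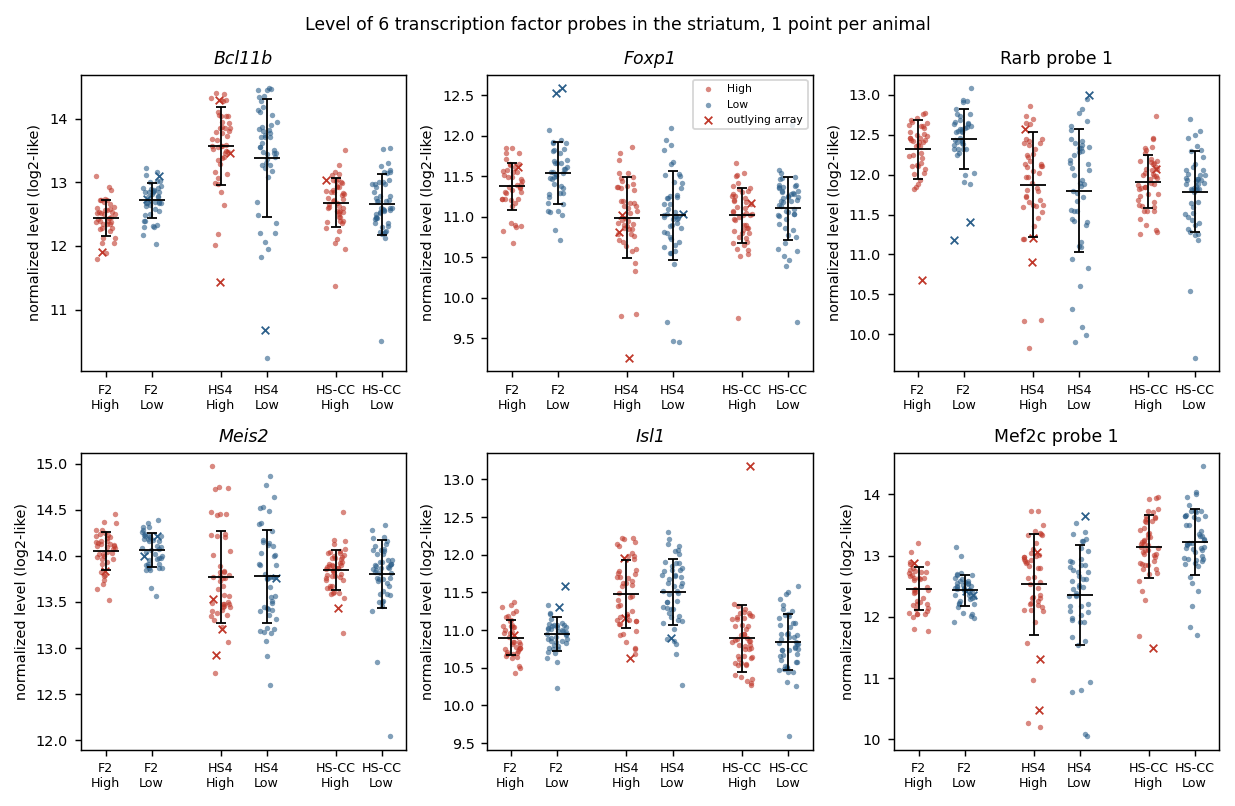
Normalized level (vertical axis, log2-like units) of 6 probes in every animal, by selection and line, High left of Low; bars are the mean ± SD of a line and crosses are the outlying arrays. In F2 the Bcl11b points of the High line average 12.44 against 12.72 in the Low line. The lines overlap in every panel and selection, and no other difference shown was called (HS4 Bcl11b averages 13.57 in High and 13.38 in Low arrays). The low HS4 tails and 1 low HS-CC Low array recur in several panels.

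The F2 difference of Bcl11b was smaller and not called once the score of the GABA interneuron list (8 expressed probes) entered the fit, at −0.16 (standard error 0.044, adjusted p = 0.119). That list had a median score of 0.068 in F2 High animals (range −0.69 to 0.85) and −0.14 in F2 Low animals (range −0.86 to 1.04). Of its 8 probes 1 was itself called, higher in F2 High animals, and their median difference was 0.099. The cholinergic list (8 probes) had a median of −0.12 in High animals (range −1.82 to 1.45) and 0.21 in Low animals (range −1.72 to 2.15), and with it the Bcl11b difference was −0.19 (standard error 0.047, adjusted p = 0.0262). The indirect pathway list (5 probes), with a median of −0.14 in the High line against 0.085 in the Low line, gave −0.21 (adjusted p = 0.0172). The endothelial and mural list (10 probes), with a median of −0.038 in the High line against 0.089 in the Low line, gave −0.23 (adjusted p = 0.0488). Every list overlapped between the lines. The spiny neuron list (29 expressed probes of 20 genes, none of them a gene described here) had a median score of 0.055 in F2 High animals (range −1.50 to 1.01) and 0.13 in F2 Low animals (range −1.56 to 0.86). With that score as a covariate the Bcl11b difference was −0.22 (standard error 0.038, adjusted p = 0.000197). The cortical list (12 probes of 10 genes) had a median score of −0.051 in High animals (range −1.23 to 1.19) and −0.027 in Low animals (range −1.02 to 1.19), and as a covariate it gave −0.26 (adjusted p = 0.00249). With the lists of direct pathway neurons, astrocytes, oligodendrocytes, microglia, choroid plexus, and septum and hypothalamus the difference lay between −0.28 and −0.26 and was called. The scores were entered 1 at a time, after the values had been seen, and a call lost or kept with a score in the fit does not say whether the cells sampled or their expression differed.

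Bcl11b lies on chromosome 12, and other F2 calls lay near it in gene order (GRCm38.p6). Among the 143 expressed probes of the 100 genes on either side, 10 probes of 8 genes were called in F2, 8 lower and 2 higher in High animals. That is 6.99%, beside 2.27% of the 485 probes of the chromosome, whose 11 calls include these 10. The nearest was Eml1, a microtubule-binding protein gene 6 places away, at −0.14 (adjusted p = 0.0742). Ppp1r13b, a p53-binding protein gene 45 places away, was the most changed by p-value at −0.43 (adjusted p = 2.72e-06), and 3 probes of the kinesin light chain gene Klc1, 42 places away, lay between −0.55 and −0.23. In the same window 0 of 137 HS4 probes and 3 of 142 HS-CC probes (2.11%) were called. In F2 a like window around Isl1, itself not called, held 4 calls among 82 probes (4.88%, beside 1.62% of its chromosome). Windows around the other genes described here held between 0% and 2.80% called in F2. These counts describe where the calls lay and carry no test.

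Foxp1 and Foxp2, the forkhead members, showed no called difference. Foxp1 ran between 10.67 and 11.85 with a median of 11.40 in F2 High animals, against 10.72 to 12.59 with a median of 11.55 in F2 Low animals. The difference of −0.17 (standard error 0.074) had an unadjusted p of 0.0271 and an adjusted p of 0.473, and it was −0.12 without the outlying arrays, 2 of which hold the highest Foxp1 levels of the Low line. In HS4 it was −0.033 (standard error 0.11) and in HS-CC −0.086 (standard error 0.074). The 3 expressed Foxp2 probes differed by −0.060 to −0.0086 in F2, −0.046 to 0.083 in HS4 and −0.033 to 0.024 in HS-CC. The third of them had an unadjusted p of 0.0162 in F2 (adjusted p = 0.395). Probes 2 and 3 followed each other over animals (r = 0.64, 0.94 and 0.48 over F2, HS4 and HS-CC). Probe 1, annotated to another Foxp2 transcript record, followed neither closely (r between −0.022 and 0.21, and between −0.11 and 0.32 without the outlying arrays). Statements on Foxp2 below therefore hold for probe 1 only.

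RefSeq gives Foxp1 3 promoters, and each holds the forkhead letters TGTTTA on 1 strand or the other, as do 13.4% of all promoters. The second, at chr6:99266466-99266765 (GRCm38.p6, minus strand), holds them at 2 positions, 77 and 16 bases before the start, and is shown for that reason beside that of Bcl11b, with which it is paired below. Capitals mark these and a reversed match to the MEIS letters TGACAG (19.2% of promoters).
Foxp1 promoter 2: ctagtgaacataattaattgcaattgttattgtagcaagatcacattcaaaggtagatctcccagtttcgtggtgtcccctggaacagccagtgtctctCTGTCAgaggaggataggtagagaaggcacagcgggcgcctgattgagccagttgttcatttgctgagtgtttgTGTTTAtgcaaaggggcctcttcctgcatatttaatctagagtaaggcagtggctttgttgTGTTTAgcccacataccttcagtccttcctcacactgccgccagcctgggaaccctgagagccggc
No Foxp1 or Foxp2 binding was measured in this study.

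Rarb was measured by 3 probes, and none was called. The first ran between 10.69 and 12.77 with a median of 12.40 in F2 High animals, against 11.18 to 13.08 with a median of 12.53 in F2 Low animals. The difference was −0.13 (standard error 0.080, adjusted p = 0.688) in F2, 0.076 (standard error 0.14) in HS4 and 0.13 (standard error 0.086) in HS-CC. Without the outlying arrays the F2 value was −0.15, with an unadjusted p of 0.0123 and an adjusted p of 0.289. The lowest Rarb level of each F2 line, far below the rest, belonged to an outlying array. Probes 1 and 2 followed each other loosely in F2 and HS4 (r = 0.40 and 0.30) and more closely without the outlying arrays (r = 0.77 and 0.53), against 0.85 in HS-CC with all arrays.

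The Rarb promoter is shown because it carries the classic retinoic acid response element, through which the receptor acts on its own gene. It lies at chr14:16575427-16575726 (GRCm38.p6, minus strand), and capitals mark both copies of GTTCA, separated by 6 bases and beginning 52 bases before the start.
Rarb promoter: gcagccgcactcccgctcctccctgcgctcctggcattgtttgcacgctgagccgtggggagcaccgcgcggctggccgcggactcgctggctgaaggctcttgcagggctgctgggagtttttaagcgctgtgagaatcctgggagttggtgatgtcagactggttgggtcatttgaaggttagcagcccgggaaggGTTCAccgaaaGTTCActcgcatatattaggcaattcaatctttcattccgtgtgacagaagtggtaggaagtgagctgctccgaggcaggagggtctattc
Of the 32851 promoters, 25 (0.0761%) held this repeat on either strand, and of the 9 genes with a RefSeq promoter Rarb was the only one.

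Meis2 and Ebf1 gave no call either. Meis2 ran between 13.52 and 14.45 with a median of 14.09 in F2 High animals, against 13.56 to 14.39 with a median of 14.08 in F2 Low animals, and its differences of −0.012, −0.010 and 0.047 in F2, HS4 and HS-CC were all smaller than their standard errors (0.042, 0.10 and 0.061). These F2 lines overlapped almost completely. The F2 interval for Meis2, −0.096 to 0.072, does not reach the size of the Bcl11b difference. Ebf1 lay close to background. It ran between 8.93 and 9.45 with a median of 9.24 in F2 High animals, against 9.10 to 9.52 with a median of 9.28 in F2 Low animals, and differed by −0.046 (standard error 0.025, interval −0.095 to 0.0031, unadjusted p = 0.0660) in F2, by −0.024 in HS4 and by 0.016 in HS-CC.

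Isl1 and Six3, tied to opposite pathways in development, likewise gave no call. Isl1 ran between 10.43 and 11.37 with a median of 10.85 in F2 High animals, against 10.24 to 11.58 with a median of 10.96 in F2 Low animals (difference −0.045, standard error 0.050). It differed by −0.029 in HS4 and 0.045 in HS-CC, where a single outlying High array at 13.17 set the sign; without it the HS-CC value was −0.0037. Six3 ran between 9.07 and 10.15 with a median of 9.40 in F2 High animals, against 9.14 to 10.04 with a median of 9.51 in F2 Low animals. The difference was −0.12 (standard error 0.055, unadjusted p = 0.0328, adjusted p = 0.496), and 9 of the 10 lowest F2 arrays were High. Six3 also followed array quality more than the others did in HS4 and HS-CC, with r = −0.38, −0.89 and −0.72 (F2, HS4, HS-CC) between its level and the mean correlation of an array with the rest. Its HS4 maximum was 11.54 in High and 11.50 in Low arrays, and 9.78 in High and 9.89 in Low arrays without the outlying ones.

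Mef2c was the one gene whose probes leaned higher in F2 High animals. Its first probe ran between 11.77 and 13.21 with a median of 12.46 in F2 High animals, against 11.91 to 13.15 with a median of 12.45 in F2 Low animals (difference 0.028, standard error 0.065), and its other probes differed by 0.016 and 0.067. None was called. Arrays labelled HS4 High ran between 10.21 and 13.73 with a median of 12.72, against 10.05 to 13.64 with a median of 12.49 on arrays labelled HS4 Low, with a long low tail in both. In HS-CC its 3 probes differed by −0.098 to −0.082, the third with an unadjusted p of 0.0468 (adjusted p = 0.393). Without the outlying HS-CC array the first and second stood at −0.047 and −0.044, and the third at −0.085 with an unadjusted p of 0.0757. Probes 1 and 2 agreed closely over animals (r = 0.95, 0.86 and 0.98 over F2, HS4 and HS-CC).

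**Figure D2:**
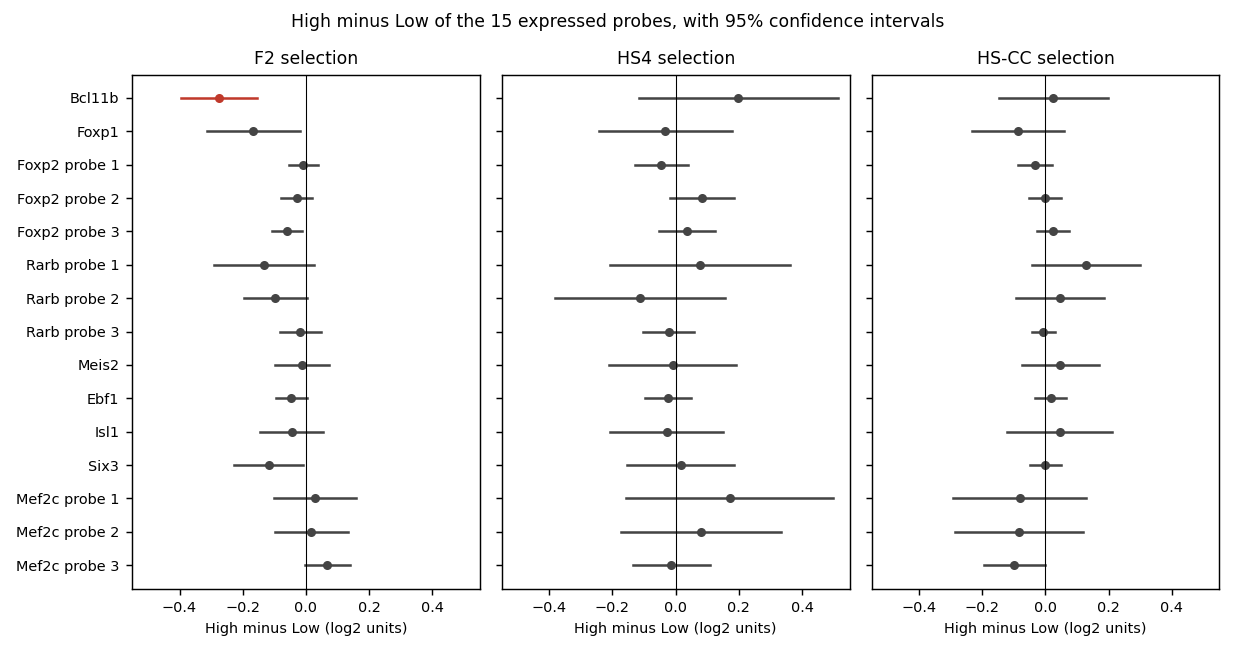
Difference in level (High minus Low, horizontal axis, log2 units) of the 15 expressed probes in each selection; points are limma estimates, bars are 95% confidence intervals and red marks the probe called at a false discovery rate of 0.1. Only Bcl11b in F2, at −0.28, is called, and HS4 intervals are the widest for most probes.

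Counted over all 15 expressed probes, 12 differences were below 0 in F2, and 8 in each of HS4 and HS-CC. Over all expressed probes of the array 51.1%, 58.4% and 53.8% of the differences were below 0 (F2, HS4, HS-CC). The 15 probes had a median of −0.045, −0.010 and −0.00036 (F2, HS4, HS-CC), beside −0.00073, −0.0091 and −0.0033 over all expressed probes of these selections. Calls numbered 1, 0 and 0, with 0.046% of all probes called in HS4 and 3.41% in HS-CC. At an unadjusted p below 0.05 there were 4 probes in F2 (Bcl11b, Foxp1, the third Foxp2 probe and Six3, all lower in High animals), 0 in HS4 and 1 in HS-CC (the third Mef2c probe). Over all expressed probes that share was 8.76%, 3.22% and 12.3% (F2, HS4, HS-CC). The 15 probes are not independent, since several share a gene and their levels move together across animals.

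The relatives and partners of these factors gave no call. Of a list of 25 paralogs and partners (among them Bcl11a, the Rxr, Meis, Pbx, Ebf and Mef2 families, Ldb1 and the Tle corepressors), 31, 27 and 28 probes were tested (F2, HS4, HS-CC), with 0 called in each, and 4, 2 and 1 at an unadjusted p below 0.05. The smallest p in F2 belonged to Pbx3, a homeodomain partner of Meis proteins, at −0.11 (standard error 0.034, adjusted p = 0.140); its other probes stood at −0.043 and 0.026. In HS4 it was Tle4 at −0.21 (adjusted p = 0.989), and in HS-CC Tle1 at 0.12 (adjusted p = 0.290). Among 30 other forebrain factors 0 of 21, 19 and 18 tested probes were called, and 4, 0 and 0 had an unadjusted p below 0.05. The smallest p belonged to the POU factor Pou3f1 in F2 (−0.13, adjusted p = 0.365), Etv1 in HS4 (0.082, adjusted p = 0.989) and Foxo1 in HS-CC (−0.064, adjusted p = 0.622).

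The spiny neuron identity list gave a single call. Of its probes, 0 of 30 were called in F2 and 0 of 29 in HS4. In HS-CC 1 of 30 was called (3.33%, near the 3.41% of all probes), Arpp19, a cAMP-regulated phosphoprotein, at −0.21 (standard error 0.039, adjusted p = 0.00017). In F2 the smallest p belonged to Gpr6, a receptor of indirect pathway neurons (−0.12, adjusted p = 0.362), and in HS4 to 1 of 3 probes of Arpp21 (0.32, adjusted p = 0.341, with −0.0021 and 0.0064 at the others). The F2 median of this list was −0.045, the same as that of the transcription factor probes, and 5 of its probes had an unadjusted p below 0.05, all lower in High animals. A median of this size was not particular to spiny neuron genes. F2 medians were −0.067 for the cholinergic, −0.055 for the indirect pathway and −0.054 for the oligodendrocyte list. Others were above 0, among them the direct pathway (0.0069), cortical (0.013) and GABA interneuron (0.099) lists. Of the direct pathway list 0 of 8 probes were called in F2, 0 of 7 in HS4 and 1 of 8 in HS-CC, 1 of 2 probes of the mitochondrial serine transporter gene Sfxn1 (−0.15, standard error 0.046, adjusted p = 0.0533, beside −0.14 and an adjusted p of 0.182 for the other), and of the indirect pathway list none of 6, 6 and 5.

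Many pairs of the factors moved together across animals. Correlations were computed between the 9 expressed genes, each by its probe of highest mean level, after the line means had been subtracted, over 83 F2, 96 HS4 and 96 HS-CC animals. All 36 pairs in each selection were tested by a two-sided permutation test (100000 resamples within lines, smallest possible p 1e-05), and p-values were adjusted over the 108 tests. Animals were permuted singly, so p-values may be too small where family members are alike. At an adjusted p below 0.1, 22 pairs were called in F2 (16 positive, 6 negative), 29 in HS4 (21 positive, 8 negative) and 26 in HS-CC (23 positive, 3 negative). The median r over all pairs was 0.18, 0.28 and 0.24. How many pairs of other probes would be called by this test was not computed. Called values could be low, as for Bcl11b with Six3 (F2, r = 0.26), Mef2c (HS4, r = 0.22) and Foxp2 (HS-CC, r = 0.24). These lay within the spread of r between Bcl11b and most other probes given below. A call alone therefore does not set a pair apart from other probes. In all 3 selections 12 pairs were called with the same sign. The 10 positive ones joined Bcl11b with Foxp1, Rarb, Meis2 and Isl1, Foxp1 with Meis2 and Isl1, Foxp2 with Isl1, Rarb with Meis2 and Ebf1, and Meis2 with Isl1. The negative ones were Foxp2 with Six3 and Isl1 with Mef2c. Without the outlying arrays 15 pairs were called in every selection, 14 of them positive, and Foxp2 with Six3 was no longer among them (r = 0.079 in HS4, against −0.54 with all arrays). After repeated removal there were 22 (17 positive, 5 negative), on residuals of the first principal component 16 (15 positive), by Spearman's rho 15 (14 positive) and without 1 low HS-CC Low array, described below, 11 (9 positive).

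Of the 10 positive pairs, 6 were called in every selection under all of these settings, namely Bcl11b with Foxp1, Rarb and Isl1, Foxp2 with Isl1, and Meis2 with Rarb and Isl1. In HS4 with all arrays no pair of these 6 passed the 95th percentile of r with other probes for both genes. Bcl11b with Foxp1 and Rarb (r = 0.54 and 0.55) passed it for neither gene (0.57 for Bcl11b, 0.60 for Foxp1, 0.63 for Rarb). The rest passed it for 1 gene, as Foxp2 with Isl1 did (r = 0.42, against 0.59 for Foxp2 and 0.38 for Isl1). In HS-CC that pair passed neither (r = 0.25, against 0.31 and 0.47), but both without the outlying array (r = 0.45). Bcl11b with Meis2 lost its HS4 call, with r = 0.24 over all arrays, 0.17 after repeated removal and 0.020 on the residuals. Foxp1 with Isl1 lost its HS-CC call, with r = 0.23 over all arrays, 0.053 after repeated removal and rho 0.15. Foxp1 with Meis2 was not called everywhere by rho, nor Rarb with Ebf1 on the residuals. Over the means of the 32 HS4 families, permuted within lines, 21 HS4 pairs were called, 20 of them among the 29. The families come from the HS4 labels, whose sex matched a Y-linked transcript on 41 of 96 arrays. These means may therefore mix unrelated animals, and they cannot settle what relatedness adds to the calls. Of the 12 pairs 10 were called there too, while Bcl11b with Meis2 (r = 0.27, permutation p = 0.167) and Isl1 with Mef2c (r = −0.17, permutation p = 0.345) were not.

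Bcl11b and Foxp1 were the closest pair of F2. Their r was 0.71, 0.54 and 0.62 (F2, HS4, HS-CC), with Spearman's rho of 0.66, 0.55 and 0.49 (permutation p = 1e-05 and adjusted p = 3.27e-05 for each). Without the 2 animals farthest from the Bcl11b median r was 0.68, 0.51 and 0.44, and without the outlying arrays 0.79, 0.64 and 0.62. Of the 10 F2 arrays lowest in Bcl11b, 8 were also among the 10 lowest in Foxp1. For comparison, 90% of the 13993 other probes had an r with Bcl11b between −0.40 and 0.40 in F2, between −0.49 and 0.57 in HS4 and between −0.28 and 0.27 in HS-CC. By r with Bcl11b, Foxp1 ranked 32 in F2 and 26 in HS-CC but 1048 in HS4, where 15.2% of all probes had an absolute r with Bcl11b above 0.5. Without the outlying arrays it ranked 5, 277 and 41 (F2, HS4, HS-CC), and its HS4 r of 0.64 lay above the 95th percentile of 0.58. On residuals of the first principal component r was 0.79, 0.30 and 0.62. Over HS4 family means it was 0.48 (permutation p = 0.0118).

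**Figure D3:**
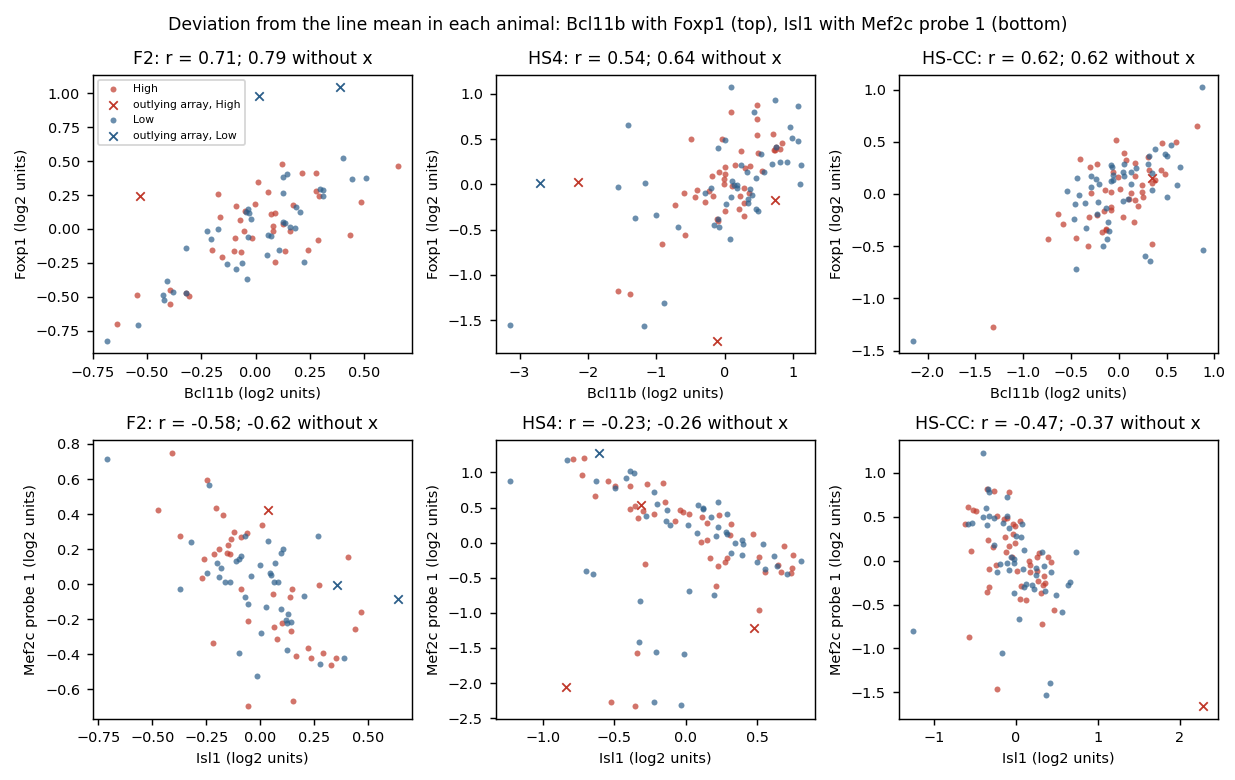
Deviation of each animal from its line mean (log2 units) for Foxp1 against Bcl11b (top) and the first Mef2c probe against Isl1 (bottom) in each selection; red is High, blue is Low and crosses are outlying arrays. Bcl11b and Foxp1 rise together (r = 0.71, 0.54 and 0.62), Isl1 and Mef2c run against each other (r = −0.58, −0.23 and −0.47), and in HS4 a group of arrays low in Mef2c lies apart from the downward band.

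In F2, Foxp1 with Rarb changed with a few arrays. This pair had r = 0.80 in HS4 (rho 0.80) and 0.72 in HS-CC (rho 0.64), each with a permutation p of 1e-05 for r and rho. In F2 r was 0.050 (permutation p = 0.653) with all arrays, rho was 0.29 (permutation p = 0.00748), and r was 0.53 without the 3 outlying F2 arrays (adjusted p = 3.48e-05). All 3 hold the lowest Rarb levels of that selection and 2 of them its highest Foxp1 levels. Rarb with Meis2 had r = 0.38 in F2 (rho 0.37), 0.56 in HS4 (rho 0.61) and 0.77 in HS-CC (rho 0.68), with adjusted permutation p-values between 3.27e-05 and 0.0018 for r and rho. Bcl11b with Isl1 had values alike in size, at r = 0.54, 0.48 and 0.50 in F2, HS4 and HS-CC (rho 0.56, 0.60 and 0.51, permutation p = 1e-05 each). The rank of Isl1 by r with Bcl11b, among 13993 other probes, was less alike, at 247, 1672 and 90. Meis2 ranked 1920, 1215 and 4 of 13991 for Rarb, and 198, 2264 and 4 without the outlying arrays. For Foxp1, Rarb ranked 6662, 8 and 14. Rarb with Meis2 and Bcl11b with Isl1 thus stood out from other probes more in HS-CC than in HS4.

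Isl1 with Mef2c was the only negative pair called in every selection under all 6 of the settings above that kept animals as the unit. The r was −0.58, −0.23 and −0.47 (F2, HS4, HS-CC; permutation p = 1e-05, 0.0256 and 1e-05), and rho was −0.60, −0.45 and −0.54 (permutation p = 1e-05 each). It was −0.62, −0.26 and −0.37 without the outlying arrays, and −0.68, −0.79 and −0.58 after repeated removal. Other pairs with Mef2c had the opposite sign in HS4 depending on the arrays kept. Rarb with Mef2c stood at 0.39 over all HS4 arrays and at −0.57 after repeated removal, and Bcl11b with Mef2c at 0.22 and −0.24, beside −0.40 in F2 with all arrays. The arrays behind this formed a low tail: the 10 HS4 arrays lowest in Mef2c probe 1, and likewise the 10 lowest in Rarb probe 1, were all among the 21 removed, as were 9 of the 10 lowest in Bcl11b. The SD of Mef2c probe 1 over HS4 arrays was 0.82 with them and 0.47 without.

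**Figure D4:**
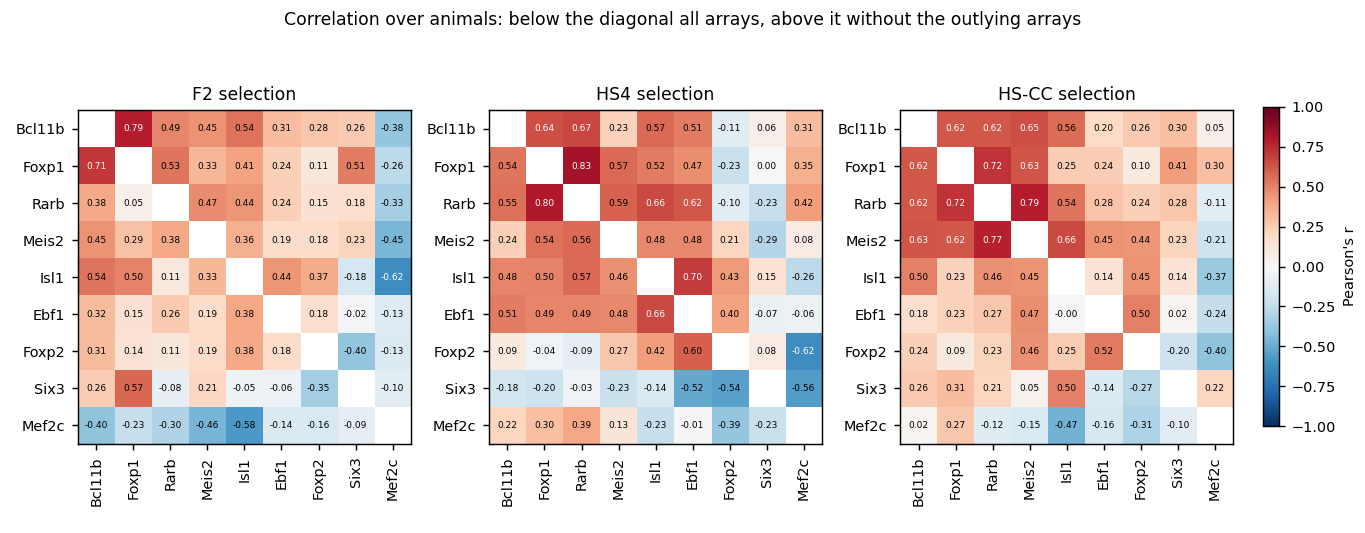
Pearson's r between the 9 expressed genes over the animals of each selection after subtraction of line means, with all arrays below the diagonal and without the outlying arrays above it; red is positive and blue negative. Bcl11b, Foxp1, Rarb, Meis2 and Isl1 are positive with one another in each panel, but in F2 with all arrays Rarb is near 0 with Foxp1 (0.050) and low with Isl1 (0.11). Mef2c has its lowest F2 and HS-CC values with Isl1 (−0.58 and −0.47 with all arrays).

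A single HS-CC Low array shaped several HS-CC values. It was the lowest of 96 in 6 probes, with Bcl11b at 10.51 (the next lowest at 11.37), Meis2 at 12.05 (12.85), Rarb probe 1 at 9.71 (10.55) and Isl1 at 9.59 (10.26), and its spiny neuron list score was −3.57 beside −1.31 for the next. Its Mef2c level of 12.43 was within the range of the others. Without it Bcl11b with Foxp1 had r = 0.52, Bcl11b with Meis2 0.46 (0.63 with it) and Rarb with Meis2 0.68. The HS-CC pairs called still numbered 26, 24 of them the same, Foxp1 with Isl1 dropped out of those called in every selection (r = 0.12), and the Bcl11b difference was −0.021 in place of 0.025.

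The strength of these correlations was not shown to differ between the lines. Of the 108 High minus Low differences in r, 0 passed adjustment (permutation of line labels, 100000 resamples), and 6 had an unadjusted p below 0.05. The smallest belonged to Foxp2 with Meis2 in HS4, at r = 0.52 in High and 0.014 in Low arrays (permutation p = 0.00648, adjusted p = 0.700). Bcl11b with Meis2 in F2 was at r = 0.67 in High and 0.20 in Low animals (permutation p = 0.0269, adjusted p = 0.802).

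Set beside lists of cell type genes, Bcl11b, Foxp1, Rarb and Meis2 followed the spiny neuron list and Mef2c the cortical one. The following are descriptions with no test, over the same animals and arrays, so shared array quality and the tissue taken enter each value. With the spiny neuron list Bcl11b had r = 0.79, 0.69 and 0.70 over F2, HS4 and HS-CC animals, Foxp1 0.74, 0.67 and 0.65, Rarb 0.50, 0.64 and 0.83, and Meis2 0.49, 0.55 and 0.91. Mef2c had −0.53, 0.016 and −0.12 with that list. With the cortical glutamatergic list Mef2c had r = 0.83, 0.32 and 0.73, and Isl1 −0.64, −0.84 and −0.66. Bcl11b, which deep-layer cortical neurons also make, had −0.52, −0.43 and −0.35 with the cortical list. Isl1 had 0.70, 0.79 and 0.46 with the cholinergic list (8 probes of 7 genes), and Bcl11b had 0.65, 0.62 and 0.45 with it. With the GABA interneuron list Bcl11b had −0.71, −0.60 and −0.52. How far the amount of cortex or of other cells in a sample entered the correlations between factors was not tested.

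**Figure D5:**
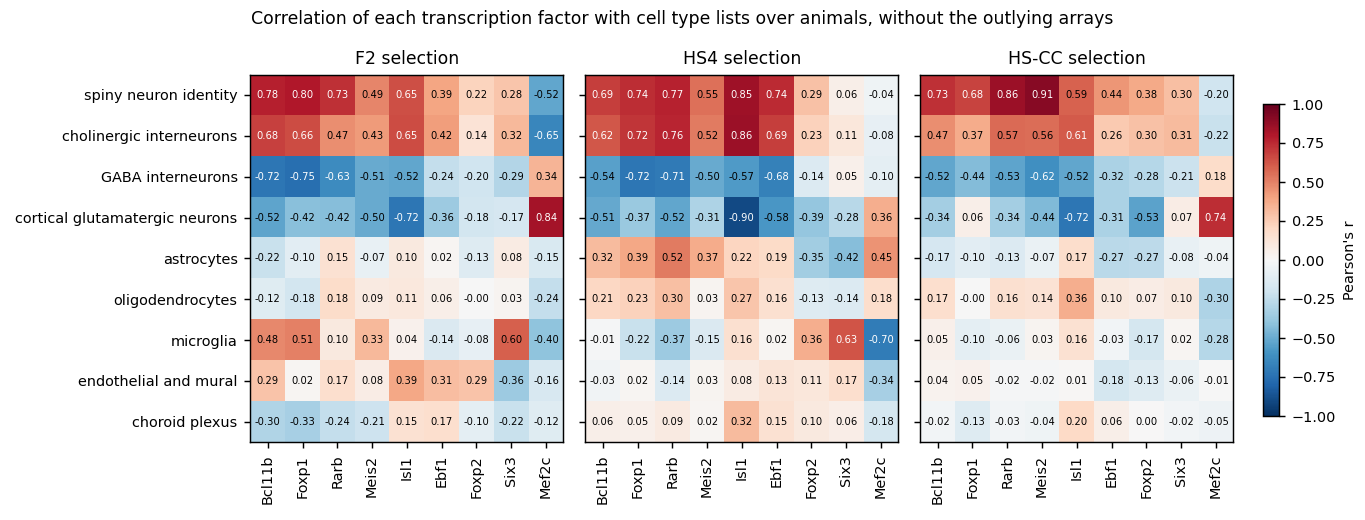
Pearson's r over the animals of each selection between each gene (columns) and the mean score of each cell type list (rows), after subtraction of line means and without the outlying arrays; red is positive and blue negative. Bcl11b, Foxp1, Rarb, Meis2 and Isl1 are positive with the spiny neuron list in each panel (0.49 to 0.91), and Mef2c is positive with the cortical list (0.84, 0.36 and 0.74).

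The probes of other genes most like each factor were ranked by the lowest of their within-line r in the 3 selections, among the probes expressed in all. For Bcl11b the first was Rgs7bp, which anchors RGS7-family regulators at the membrane, with r = 0.70, 0.75 and 0.73 (F2, HS4, HS-CC), followed by both probes of the anchoring protein gene Akap9. Foxp1 had Cacng4, Chst15 and Gsk3b, and Foxp2, with lower values, Fam171a1 (0.47, 0.65 and 0.49), Lrrc1 and Kdm3a. Rarb had Sertad4 (0.81, 0.75 and 0.76), Neto1 and Arpc1a, and without the outlying arrays its first was the D1 receptor gene Drd1 (0.78, 0.83 and 0.83). Meis2 had a pair of Flrt3 probes and Krt10, and Ebf1 had Tlnrd1, Actn1 and Ppp1r9a. Isl1 had Plppr1, Pde1b and Chat, the acetylcholine-synthesizing enzyme of cholinergic interneurons (0.58, 0.70 and 0.58). Six3 had Abcf1 (0.76, 0.93 and 0.76), Setd4 and Nfasc, and none of these was among its first 3 without the outlying arrays. Mef2c had Klf6 (0.76, 0.74 and 0.78), Gpd2 and Pgm2l1. Without the outlying arrays the first for Bcl11b was Arel1 (0.70, 0.71 and 0.70), with Rgs7bp second. The first for Foxp1 was then Ppp3ca, a catalytic subunit of calcineurin, and for Foxp2 it was Doc2b. Isl1 had Cyld, Pde1b and Zfp521 in that case, and Chat was not among its first 3.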

How the data were processed

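Values were deposited by the authors as log2-like normalized levels of Illumina WG bead array probes, 1 column per animal, made with lumi (version not given in the sources used here) and quantile normalization. Whether log2 or a variance-stabilizing transformation was applied is not stated, and on either scale a difference of a dim probe may be compressed. Detection p-values were not used here. Of 25697 probes, 23978 had 1 gene symbol and 1719 none.

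Lines were compared within each selection with limma 3.58.1 (lmFit and eBayes, R 4.3.3), High minus Low, at a false discovery rate of 0.1 after Benjamini-Hochberg adjustment over all expressed probes. Differences of effects among selections were tested as interaction contrasts after quantile normalization across all arrays. Pair correlations were tested by permutation of animals within lines (100000 resamples). List scores are mean z scores of the expressed probes. Python 3.11.15, numpy 2.4.6, scipy 1.17.1, pandas 2.3.3 and matplotlib 3.10.9 were used, and the tests were tried on simulated data. Promoters came from RefSeq (GRCm38.p6), which matched 9 of the 10 genes. The number of arrays limits the precision; each animal gave 1 array.

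The members, gene lists and tests were chosen with earlier results of these data known. Genes named were all probes of the 10 genes, the 3 probes most like each, and list probes past the threshold or with the smallest p. The genes near Bcl11b were named after their values were seen. Alternatives were every probe, stricter filters (above background on 50% of arrays, background percentile 99), the variable probes (4572), arrays left out, an intensity trend, a rate of 0.05, joint normalization, a Y-linked level, labelled sex and family (HS4), the first principal component, list scores as covariates, and, for pairs, Spearman correlation, pooled lines, gene means and, in HS4, family means.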

Additional observations from a re-analysis of the deposited data

How the results depend on the processing

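The Bcl11b difference in F2 was called under 21 of 23 settings other than leaving out 1 array. The exceptions were quantile normalization across all arrays, where 0 probes of the 10 genes were called, and the GABA interneuron list as a covariate (−0.157, adjusted p = 0.119). Without any 1 F2 array it lay between −0.292 and −0.259. With the spiny neuron list as a covariate, 1 HS-CC probe was called, the first Rarb probe, at 0.145 (standard error 0.048, adjusted p = 0.0936). The numbers of pairs called stayed within 1.5 times of those given, between 21 and 31 in F2, 21 and 33 in HS4 (21 over family means) and 25 and 30 in HS-CC. Negative HS-CC pairs numbered 3, and 7 after repeated removal. Pairs called with 1 sign in every selection numbered 12, and 11 to 22 under the other settings. Of 620 other values of single differences, 588 kept their sign and side of the threshold and 29 changed sign, none of them called, with sizes up to 0.0474 and adjusted p-values of at least 0.791; no cause was tested.

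The sign changes without the outlying arrays were Foxp1 0.0087, Meis2 0.026, Six3 −0.047 and Mef2c probe 3 0.028 in HS4, and Foxp2 probe 2 0.0065 and Isl1 −0.0037 in HS-CC. After repeated removal they were Foxp2 probe 1 0.0024 in F2, Foxp2 probe 1 0.012, Rarb probe 1 −0.029, Six3 −0.018 and Mef2c probe 3 0.026 in HS4, and Foxp2 probe 2 0.0011, Rarb probe 3 0.0036, Isl1 −0.025, Mef2c probe 1 0.00092 and Mef2c probe 2 0.0066 in HS-CC. With the first principal component they were Foxp2 probe 2 0.0082 and Isl1 −0.0046 in HS-CC. With the spiny neuron list they were Meis2 0.010, Mef2c probe 1 −0.011 and Mef2c probe 2 −0.015 in F2, Meis2 0.0069 in HS4 and Foxp2 probe 2 0.0034 in HS-CC. With the cortical list they were Mef2c probe 2 −0.0049 in F2, Meis2 0.015 and Isl1 0.031 in HS4, and Bcl11b −0.0051 and Isl1 −0.0096 in HS-CC. Without the HS-CC Low array lowest in the spiny neuron list, Bcl11b stood at −0.021. Signal close to background limits Ebf1, Six3, Foxp2 and the third Rarb and Mef2c probes.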
